A study of Mus musculus with 2 samples.

Results

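The cells described here are 418 oligodendrocytes of injured mouse spinal cord that carried RNA of Syt4, Sox4 or both. They were chosen by measured values in the library taken 3 days post injury (3 dpi). A barcode needed at least 1000 unique molecular identifiers (UMIs, the count of distinct captured RNA molecules) and at least 10 UMIs of Mag, Mog, Mobp, Ermn and Cldn11 together per 10000. It also needed at least 5 of Syt4 and Sox4 together per 10000. Pdgfra, Cspg4 and C1ql1, which mark precursors, had to sum to below 5, and the C1q genes of phagocytes and the collagen genes Col1a1 and Col1a2 to below 20 each. The 418 Syt4/Sox4 cells were 3.07% of the 13594 barcodes of the 3 dpi library, out of 23732 in the series. Of 1891 barcodes that met every criterion but the one on Syt4 and Sox4, they made up 22.1% (95% binomial interval 20.3 to 24.0%), and the other 1473 are called other 3 dpi oligodendrocytes below. The series held 1 sham library and 1 library at 3 dpi, each from an 8 mm piece of cord of pooled C57BL/6 mice, 5 males and 5 females aged 8 weeks. What kind of injury was made is not stated in the labels. With 1 library a group there was no replicate and no test, and library and injury cannot be told apart. Each interval covers counting error only.

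Oligodendrocytes wrap axons of the central nervous system in myelin. They arise from precursors that divide, pass through a committed stage, and then switch on myelin genes such as Mag, which encodes an adhesion protein of the inner myelin sheath that also inhibits axon growth. Sox4 encodes a transcription factor of the SoxC group, which is high in immature neural cells and falls as they mature. Syt4 encodes a synaptotagmin, a membrane protein of vesicles and secretory granules. Klk8 encodes neuropsin, a secreted serine protease that oligodendrocytes are known to produce after spinal cord injury.

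Of the 4 markers given for the population, Mag, Syt4 and Sox4 were used by the rule and check nothing. As a description, Mag stood at 2536 CPM (UMIs of a gene per 1000000 UMIs summed over a population) in the Syt4/Sox4 cells, 4146 in other 3 dpi oligodendrocytes, 3829 in sham oligodendrocytes and 22.4 in 3 dpi precursors. Of single Syt4/Sox4 cells, 92.3% held a Mag UMI, with a median of 19.6 per 10000 UMIs and a range up to 119. Klk8 stood at 958 CPM, against 662 in the other 3 dpi oligodendrocytes, 417 in precursors and 1.91 in sham oligodendrocytes. Both oligodendrocyte populations of the injured cord thus lay far above sham oligodendrocytes for Klk8. Sham precursors were not measured, so the precursor value has no like sham value beside it. Klk8 and Sox10 were not used by the rule. The oligodendrocyte transcription factor Sox10 was near level, at 249 CPM in the Syt4/Sox4 cells, 278 in the other 3 dpi cells and 321 in sham.

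Syt4 and Sox4 chose the cells, and their levels are given as a description. The pair together ranged from 5.02 to 84.9 per 10000 UMIs with a median of 10.6, and the 10th member above the threshold stood at 5.32. The highest of the other cells stood at 4.99 and the 10th below the threshold at 4.83, so the threshold cut through a continuous range. Of the other 1473 cells, 999 held no UMI of either gene and 474 held some below the threshold. A single UMI placed 1 cell among the 418, and 2 UMIs placed 6. The sum of the 5 oligodendrocyte genes had a median of 69.2 per 10000 in the Syt4/Sox4 cells, 153 in the other 3 dpi oligodendrocytes and 139 in sham. Median depth was 10282.5, 8445 and 8010.5 UMIs in the same order.

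**Figure D1:**
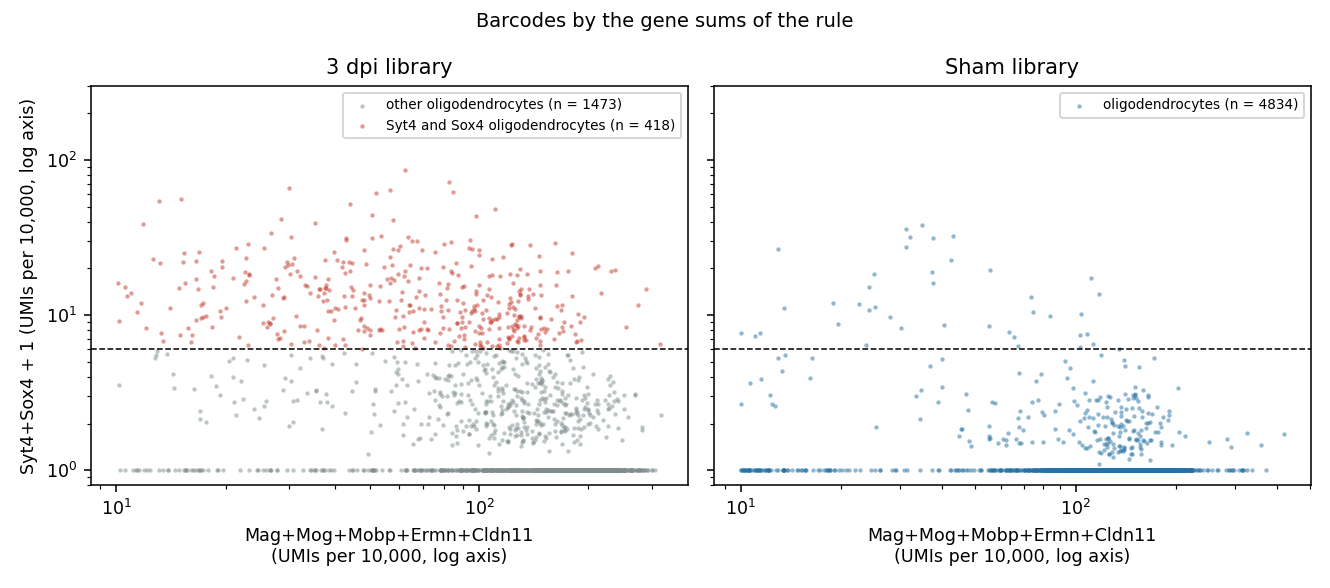
Each point is 1 barcode, with the summed oligodendrocyte genes on the horizontal axis and Syt4 plus Sox4, with 1 added, on the vertical axis, both per 10,000 UMIs on log axes. The 418 selected cells of the 3 dpi library lie above the dashed line of 5 per 10,000 at all levels of the oligodendrocyte genes, whereas 41 of 4834 sham oligodendrocytes lie above it.

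In the sham library 4834 barcodes met the criteria without Syt4 and Sox4, and 41 of them (0.848%, 95% interval 0.609 to 1.15%) passed the whole rule. The 41 sham cells held other genes than the 418. Their committed and newly formed oligodendrocyte genes summed to 18926 CPM, against 2683 in the Syt4/Sox4 cells at 3 dpi. Gpr17, a receptor of the committed stage, stood at 924 CPM in them and 7.80 in the 3 dpi cells. Bmp4, a signal that committed cells make, stood at 388 against 0.974 CPM, and the sialidase gene Neu4 at 273 against 3.12. No Klk8 UMI was seen in the 41 sham cells, which allows up to 6.03 CPM, and Serpina3n, a serine protease inhibitor, stood at 4.02 CPM against 2875. Their Sox4 came without Syt4 in 32 cells and with it in 9. Syt4 alone was seen in 0 of 41 cells, which allows a share of up to 7.32%. A Gpr17 UMI was found in 85.4% of the 41 sham cells and 2.87% of the 418, and a Klk8 UMI in 0 of 41 and 75.6%.

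Among the 418 cells, 254 (60.8%) carried UMIs of both genes, 68 (16.3%) of Syt4 only and 96 of Sox4 only. The 68 cells with Syt4 alone were the more myelinated in RNA. Their Mal, a proteolipid of compact myelin, stood at 3045 CPM, against 1186 in cells with both genes and 1254 in cells with Sox4 alone. Ptgds, a prostaglandin D2 synthase of one mature oligodendrocyte type, stood at 4731, 1550.3 and 658 CPM in the same order. Ccnd1 went the other way, at 113 CPM with Syt4 alone, 475 with both and 267 with Sox4 alone. Tnfrsf12a differed little, at 149, 150.3 and 136 CPM. Median depth was 7072 UMIs with Syt4 alone, 11630.5 with both and 9717.5 with Sox4 alone, and its part in these differences was not tested.

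The comparison with the other 3 dpi oligodendrocytes asked what else differed between cells of 1 library. Cyclin D1 (Ccnd1), S100a10 (an annexin A2 partner), the TWEAK receptor Tnfrsf12a and the intermediate filament Vim led the genes at higher CPM. Of 6230 genes measured at 20 CPM or more in either population, 113 were at least 2-fold higher with 10 CPM added to both (1.81%) and 43 at least 2-fold lower (0.69%). Genes were named by a size rule, not by a test. Ccnd1 stood at 391 CPM in the Syt4/Sox4 cells and 73.4 in the others, a ratio of 5.33 (95% interval 4.96 to 5.74). S100a10 stood at 761 and 182 CPM, a ratio of 4.18 (3.98 to 4.39). Tnfrsf12a stood at 147 and 34.8 CPM, a ratio of 4.23 (3.79 to 4.74). Vim stood at 917 and 292 CPM, a ratio of 3.14 (3.02 to 3.27).

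Several further genes of this group act at the membrane or in the cytoskeleton. Amotl1, an angiomotin that binds the co-activator YAP, stood at 153 against 44.4 CPM. The adhesion molecule Pcdh17 stood at 109 against 29.9 CPM, and Emp1, a membrane protein of the PMP22 family, at 110.5 against 33.3. Nav2, which encodes a neuron navigator protein, stood at 169 against 57.8 CPM. Dusp10, a phosphatase of the kinases p38 and JNK, stood at 109 against 34.8 CPM. Marcks, a substrate of protein kinase C, stood at 134 against 25.9 CPM, but 56.5% of its UMIs came from 10 cells. The same share was 23.9% for Ccnd1, 15.1% for S100a10 and 11.96% for Amotl1, and it was 38.6% for Vim, 31.1% for Pcdh17 and 27.2% for Klk9. Weighting each cell equally lowered the log2 ratio of Marcks from 2.01 to 1.37.

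**Figure D2:**
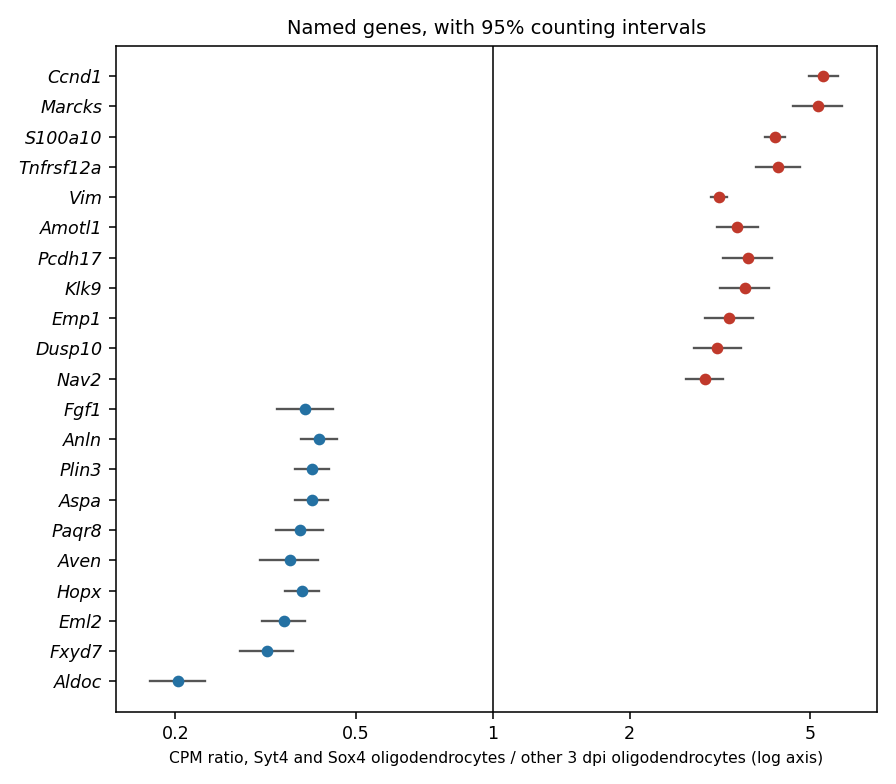
Points are ratios of CPM between Syt4/Sox4 cells and other 3 dpi oligodendrocytes on a log axis, and bars are 95% counting intervals, for 11 of the 12 genes with the highest log2 ratio under the naming rule and the 10 with the lowest. Ccnd1 is the highest at 5.33 and Aldoc the lowest at 0.203.

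Shares of cells were compared after thinning each cell to 3000 UMIs. An S100a10 UMI was then found in 66.5% of 406 Syt4/Sox4 cells (95% interval 61.7 to 71.1%), 25.1% of 1397 other 3 dpi cells and 0.850% of 4590 sham cells; without thinning the shares were 84.4%, 41.1% and 2.98%. An Amotl1 UMI was found in 37.9% and 11.5% of the 2 populations at 3 dpi and in 1.49% of phagocytes, which stand for a cell type without this gene and had a median depth of 12448.5 UMIs. Klk9 was found in 20.9% and 7.73% of the thinned cells and in 0.182% of phagocytes. For Klk8 the shares were 62.1% and 49.0%, with 5.79% in phagocytes. Thinning left out 12 Syt4/Sox4 cells, 76 of the others and 162 of 5656 phagocytes.

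Cells were also grouped by the Syt4 and Sox4 level that the rule used, which is a description and no separate support. S100a10 and Ccnd1 had been named for differing across the same threshold. Most of these genes followed the Syt4 and Sox4 level also below the threshold. S100a10 stood at 88.3 CPM in cells with no UMI of the pair, 301 in cells above 0 and below 5 per 10000, 590.4 at 5 to 10, 784 at 10 to 20 and 1292 at 20 or more. Ccnd1 passed from 31.6 to 126, 293, 414 and 675 CPM over the same 5 groups. Sox11, the SoxC relative of Sox4, passed from 5.49 to 14.2, 45.0, 56.6 and 134 CPM. Klk8 followed another order. It stood at 486, 884, 1087, 887 and 688 CPM, highest in the lowest group above the threshold. The part of depth in all these orders was not tested: median depth was 7281 UMIs in the group without a UMI of the pair and 12479.5 in the next.

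**Figure D3:**
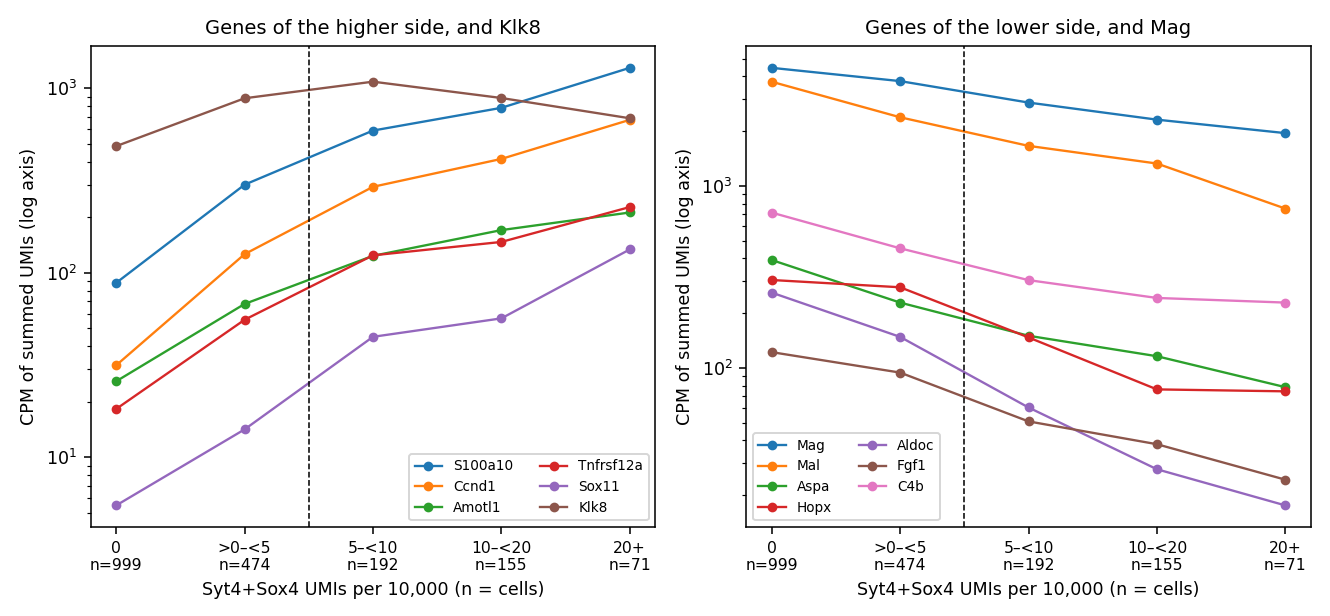
CPM of summed UMIs (log axis) of 3 dpi oligodendrocytes in 5 groups by Syt4 plus Sox4 UMIs per 10,000, with the number of cells under each group; the dashed line is the threshold of the rule. S100a10 passes from 88.3 to 1292 CPM and Mal from 3731 to 751, while Klk8 is highest in the third group.

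The Syt4/Sox4 cells also had less RNA of the oligodendrocyte genes, so the comparison was repeated among cells at 80 to below 150 per 10000 of those genes, 153 Syt4/Sox4 cells and 498 others. Called doublets were 5.23% of these Syt4/Sox4 cells and 12.05% of these others. Microglia and macrophage markers summed to 939 and 1433 CPM in the same order. The part of doublets and phagocyte RNA in the ratios among these cells was not tested. All 22 genes named against the other cells kept their direction among them. The log2 ratio of Amotl1 stayed at 1.502, against 1.59 over all cells, that of Dusp10 at 1.31 against 1.40, that of Klk9 at 1.26 against 1.56 and that of Tnfrsf12a at 1.37 against 1.81. Ccnd1 moved from 2.27 to 1.65 and S100a10 from 2.01 to 1.18. Vim, Nav2 and Emp1 came to 0.42, 0.84 and 0.93, below 2-fold. Pcdh17 was higher there, at 2.27 against 1.57. Within the Syt4/Sox4 cells, S100a10 stood at 1747 CPM in the 42 cells with the least oligodendrocyte RNA and 74.4 CPM in the 35 cells with the most. Those 42 cells held 2862 CPM of microglia and macrophage markers, 891 of neutrophil and 289.9 of endothelial markers, and 19.0% of them were called doublets. The 45 other 3 dpi oligodendrocytes at the same level, 10 to below 20 per 10000, held more of each, at 8076, 6536 and 349 CPM. Of those 45 cells 4.44% were called doublets. The part of these in the result was not tested.

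Myelin and mature oligodendrocyte genes were lower as a group. Of 30 measured, 0 were 2-fold higher and 7 were 2-fold lower than in the other 3 dpi cells, with a median log2 ratio of -0.57 against 0.06 for all measured genes. Of all measured genes 1.81% were 2-fold higher and 0.69% lower. Aspa, which splits N-acetylaspartate for myelin lipid synthesis, stood at 128 CPM against 320 in the other 3 dpi cells and 689.6 in sham. Mal stood at 1409, 3135 and 4821 CPM, Fa2h, which hydroxylates the fatty acids of myelin lipids, at 134.5, 295.5 and 679, and the septin-binding protein gene Anln at 104, 251 and 424. The gap junction gene Gjb1 did not follow, at 584, 573 and 582 CPM, nor did Cryab, a small heat shock protein, against the other 3 dpi cells, at 2117 and 2147 CPM. Of the 30 genes 5 lay above 0 against the other 3 dpi cells. Ptgds was among the higher ones, at 1723 CPM in the Syt4/Sox4 cells. It stood at 1111 CPM in other 3 dpi cells with no UMI of the pair and 849 in those with some. The 5 oligodendrocyte genes of the rule are themselves myelin-related and were lower in the Syt4/Sox4 cells. Among cells of like oligodendrocyte RNA the median of the list was -0.19, and Mal and Fa2h came to log2 ratios of -0.27 and -0.34.

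Other genes named on the lower side included Aldoc, a glycolytic aldolase best known from astrocytes, at 42.7 against 210.1 CPM. Its ratio was 0.203 (0.176 to 0.233), and it kept a log2 ratio of -1.99 among cells of like oligodendrocyte RNA. The homeodomain-only protein gene Hopx, which marks one mature oligodendrocyte type of the cord, stood at 111 against 292 CPM. Fxyd7, a regulator of the sodium pump, stood at 47.4 against 149 CPM, and the growth factor gene Fgf1 at 42.5 against 109.8. Eml2, Aven, Paqr8 and Plin3 stood between 39.6 and 118 CPM, against 111 to 295 in the other cells. Cholesterol synthesis genes leaned the same way without reaching 2-fold: of 21 measured, 0 were 2-fold changed in either direction and 2 lay above 0, with a median of -0.51. Fdps, a farnesyl diphosphate synthase, stood at 220.2 against 405 CPM and Sc5d, a sterol desaturase, at 114 against 227. Of 11 guidance genes 0 were 2-fold changed, with Sema4d at 178 against 321 CPM and the Nogo gene Rtn4 at 2185 against 3088. The median of that list was -0.28, and 0.14 among cells of like oligodendrocyte RNA.

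The transcription factors of the oligodendrocyte lineage were close between both 3 dpi populations, with 0 of 18 at 2-fold and a median of -0.04, or 0.12 among cells of like oligodendrocyte RNA. Against sham, 5 of 18 were 2-fold lower, as were 8.1% of all genes measured in that pair. Olig1 stood at 350.2 CPM in Syt4/Sox4 cells, 369 in the others and 894 in sham, and Olig2 at 73.9, 63.3 and 176. Myrf, which switches on myelin genes, stood at 219, 259 and 305 CPM. Sox8, a partner of Sox10, stood at 31.0, 57.0 and 114 CPM, and Creb5 at 36.8, 37.9 and 168. Among the SOX family 4 genes were measured, of which 2 were 2-fold higher than in the other 3 dpi cells, against 1.81% of all measured genes. Sox11 stood at 62.0 against 9.32 CPM, with 0.987 in sham and 134 in precursors. As it was below 20 CPM in the other 3 dpi cells, it could be counted only as higher. Sox2, a factor of neural progenitors, stood at 205 against 90.4 CPM, with 90.8 in sham and 242 in precursors. Among cells of like oligodendrocyte RNA both were below 2-fold, with log2 ratios of 0.78 for Sox11 and 0.999 for Sox2.

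Against 825 precursors of the same library the Syt4/Sox4 cells kept a mature profile. Of 7434 genes measured in that pair 705 were 2-fold higher (9.48%) and 1130 were 2-fold lower (15.2%). Of 30 myelin genes 28 were 2-fold higher, with a median log2 ratio of 4.07. Opalin, a membrane protein of myelinating cells, stood at 578 CPM against 3.61. All 25 measured precursor genes outside the rule were 2-fold lower, with a median of -3.05. Cspg5, a proteoglycan, stood at 18.7 against 958.5 CPM, Ptprz1, a receptor phosphatase, at 15.4 against 697, and Gap43, a growth cone protein, at 29.6 against 832. The choice of both populations by precursor and oligodendrocyte genes sets the direction of these lists. Ccnd1 and S100a10 were higher still in precursors, at 2247 and 1256 CPM, while Klk9, at 10.2 CPM, and Amotl1, at 69.7 CPM, were lower there than in the Syt4/Sox4 cells.

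A few immature genes stood above the other 3 dpi oligodendrocytes. Of 7 measured precursor genes outside the rule, 4 were 2-fold higher and 0 were lower: Fabp7 at 44.8 against 9.96 CPM, Xylt1 at 31.6 against 7.47, Vcan at 26.3 against 5.30 and Nnat at 22.4 against 5.94. All 4 were below 20 CPM in the other cells. They were measured only through the Syt4/Sox4 cells and could be counted only as higher. Over all measured genes 1.81% were 2-fold higher and 0.69% lower. Fabp7 and Vcan rested on few cells, and the share of UMIs in 10 cells was not computed for Xylt1 and Nnat. Of Fabp7 UMIs 83.9% came from 10 cells and of Vcan UMIs 60.7%. Without cells that held 5 or more cell cycle genes the log2 ratio of Fabp7 came from 1.46 to 0.48 and that of Vcan from 1.25 to 0.76. Of 13 measured committed and newly formed genes 3 were 2-fold higher and 0 lower, with a median of 0.64. Frmd4a stood at 234 against 90.03 CPM and Rras2 at 53.4 against 19.99, with log2 ratios of 0.98 and 0.93 among cells of like oligodendrocyte RNA. The noncoding RNA gene 9630013A20Rik stood at 41.5 against 0.383 CPM, with 98.1% of its UMIs in 10 cells. This gene and Rras2 were below 20 CPM in the other cells, so they could be counted only as higher. Enpp6, a marker of newly forming cells, was level at 244 against 279 CPM, and Bcas1 stood at 843 against 487.

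Kallikreins are serine proteases whose genes lie side by side on chromosome 7. They summed to 3194 CPM in the Syt4/Sox4 cells and 3587 in the other 3 dpi oligodendrocytes, and of 3 measured 1 was 2-fold higher and 0 lower. The shares over all measured genes were 1.81% and 0.69%. Klk9 stood at 109.5 CPM in the Syt4/Sox4 cells, 30.5 in the other 3 dpi cells, 10.2 in precursors and 1.204 in sham, a ratio of 3.59 (3.17 to 4.06) to the other cells. Klk8 stood at 958 against 662 CPM, below 2-fold. Klk6, which is abundant in mature oligodendrocytes and cleaves myelin and matrix proteins, went the other way, at 2113 against 2885 CPM, with 1190.2 in sham. Klk10 stood at 5.07 and Klk7 at 8.58 CPM.

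Klk9 and Klk8 are shown because they are neighbours on the same strand, 5686 bases apart by their start sites, and Emp1 because it was the single gene named on the higher side whose promoter held a searched motif. The sequences are the 250 bases before the RefSeq start site, build GRCm38.p6, plus strand. Klk9 lies at chr7:43791641-43791890, Klk8 at chr7:43797327-43797576 and the first Emp1 entry at chr6:135362681-135362930. Capitals mark matches.

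Klk9: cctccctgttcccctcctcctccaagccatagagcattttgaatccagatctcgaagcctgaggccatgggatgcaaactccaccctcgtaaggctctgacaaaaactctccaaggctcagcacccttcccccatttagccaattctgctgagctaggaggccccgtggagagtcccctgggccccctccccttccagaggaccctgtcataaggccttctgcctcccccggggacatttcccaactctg
Klk8: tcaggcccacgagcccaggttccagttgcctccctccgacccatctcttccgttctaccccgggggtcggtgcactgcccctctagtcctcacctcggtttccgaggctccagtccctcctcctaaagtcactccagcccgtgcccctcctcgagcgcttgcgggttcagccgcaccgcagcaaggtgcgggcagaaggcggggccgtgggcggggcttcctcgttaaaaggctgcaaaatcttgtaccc
Emp1: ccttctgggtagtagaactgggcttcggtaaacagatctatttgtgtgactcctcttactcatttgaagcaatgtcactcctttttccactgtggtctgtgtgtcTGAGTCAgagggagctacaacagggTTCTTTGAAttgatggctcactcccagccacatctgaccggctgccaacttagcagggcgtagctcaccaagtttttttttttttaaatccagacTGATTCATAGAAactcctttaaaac

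The motifs searched on both strands were those of AP-1 (TGANTCA), CRE (TGACGTCA), CHOP-ATF4 (TGATGNAA), STAT (TTCNNNGAA) and TEAD (GGAATG), and in Emp1 an AP-1 and a STAT match overlap. Promoters were found for 8 of the 12 genes named on the higher side. A gene with several start sites was counted if any of them held the letters. AP-1 and STAT letters were in 1 of these 8, Emp1, and in 7.82% and 8.13% of 27025 genes. CRE, CHOP-ATF4 and TEAD letters were in 0 of the 8, and in 1.77%, 3.91% and 14.4% of all genes. Of the 10 genes named on the lower side 8 had a promoter in the table. AP-1 letters were in 1 of them (Aven), STAT in 2 (Aldoc and Paqr8), TEAD in 3 (Aldoc, Aven and Paqr8), and CRE and CHOP-ATF4 in 0. These are descriptions of letters in a window and say nothing about binding.

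Among the injury-associated oligodendrocyte genes 26 were measured, of which 5 were 2-fold higher and 1 lower than in the other 3 dpi cells, with a median of 0.56. Of all measured genes 1.81% were 2-fold higher and 0.69% lower. The list had been chosen on these data. Besides S100a10 and Tnfrsf12a, Tgfbi, a secreted matrix protein, stood at 137 against 51.8 CPM and Igfbp3, which binds insulin-like growth factors, at 32.9 against 9.20. Being below 20 CPM in the other cells, Igfbp3 could be counted only as higher. Igfbp3 reversed in female-derived cells, where its log2 ratio was -0.37, and stood at -0.10 among cells of like oligodendrocyte RNA. Tgfbi came there from 1.25 to 0.20. The hyaluronan receptor gene Cd44, chosen after its values were seen, stood at 188 against 80.4 CPM. The single lower gene was complement C4b, at 271 against 599 CPM and 33.0 in sham. Serpina3n stood at 2875 against 4177 CPM, so 2 genes that are far above sham in both populations were lower in the Syt4/Sox4 cells than in the rest. The log2 ratio of Serpina3n was -0.54, below 2-fold, and -0.16 among cells of like oligodendrocyte RNA.

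**Figure D4:**
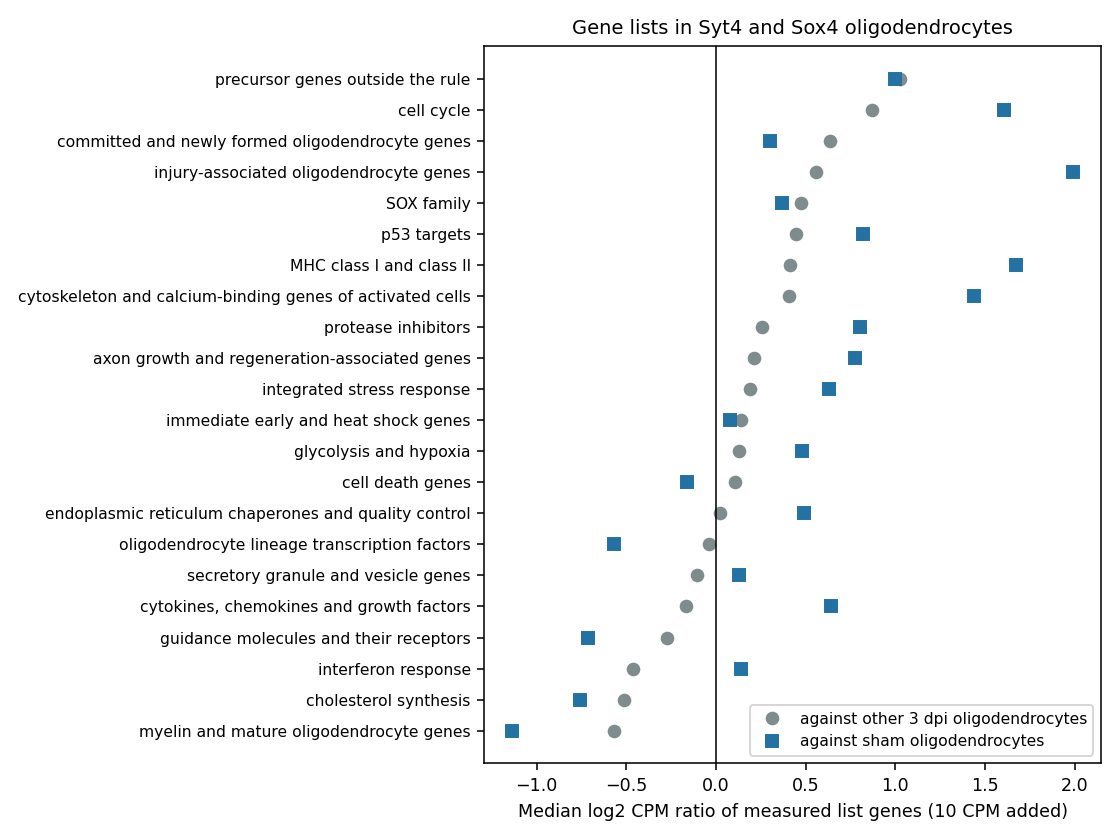
Median log2 ratio (10 CPM added) of the measured genes of each list with at least 4 measured, for Syt4/Sox4 cells against other 3 dpi oligodendrocytes (grey circles) and against sham oligodendrocytes (blue squares). Myelin genes lie lowest against both, at -0.57 and -1.14, and injury-associated genes, a list chosen on these data, are the highest drawn against sham, at 1.99; kallikreins, with 3 measured and a median of 3.42, are not drawn.

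Of 24 cytoskeletal and calcium-binding genes of activated cells 5 were 2-fold higher and 0 lower, with a median of 0.41. Over all measured genes 1.81% were 2-fold higher and 0.69% lower. Lgals3, a galectin, stood at 1009 against 463 CPM, Lgals1 at 408 against 183 and the actin-binding Tagln2 at 292 against 106. Vim and the astrocyte filament gene Gfap, at 50.7 against 19.0 CPM, were the other members past 2-fold, while Actb was level at 7450 against 7563. Gfap was below 20 CPM in the other cells, so it could be counted only as higher. Among cells of like oligodendrocyte RNA the median of this list was 0.02, and the log2 ratio was 0.46 for Lgals3, 0.69 for Lgals1 and 0.93 for Tagln2. Phagocytes of the same library held Lgals3 at 2933 CPM. Microglia and macrophage markers summed to 1279 CPM in the Syt4/Sox4 cells and 1509 in the others, and the part of phagocyte RNA in Lgals3 was not tested. Of 9 protease inhibitors 1 was 2-fold higher: Timp1, an inhibitor of matrix metalloproteases, at 114 against 33.3 CPM, with 59.8% of its UMIs in 10 cells and 2942 CPM in fibroblasts. Its log2 ratio came from 1.52 to 0.27 among cells of like oligodendrocyte RNA. Cystatin C (Cst3) stood at 796 against 418 CPM, and its log2 ratio came from 0.91 to 0.40 among cells of like oligodendrocyte RNA.

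Signals and secretion differed gene by gene. Gdnf, a neurotrophic factor for motor neurons, stood at 50.9 CPM against 7.98 in the other 3 dpi cells, 5.47 in precursors and 0.0197 in sham. It had a UMI in 35.2% of Syt4/Sox4 cells, and its log2 ratio was 1.75 in male-derived and 1.66 in female-derived cells. The ligands of the epidermal growth factor receptor Btc and Tgfa stood at 76.8 against 34.1 and 364 against 188 CPM, with log2 ratios of 0.98 and 0.92 after 10 CPM were added. Fgf1 was lower, and of 15 measured cytokine and growth factor genes 1 was higher and 1 lower. The shares over all measured genes were 1.81% and 0.69%. Adm, the vasodilator adrenomedullin and a hypoxia-induced gene, stood at 56.7 against 8.24 CPM, the 1 gene of 18 glycolysis and hypoxia genes past 2-fold. Of 10 secretory granule genes 1 was past 2-fold, the neuropeptide precursor Vgf at 65.3 against 12.2 CPM, with 66.3% of its UMIs in 10 cells. Cpe, which trims peptide hormones, stood at 552 against 277 CPM. Of the other synaptotagmins 2 were measured: Syt6 stood at 27.1 against 4.02 CPM and Syt11 at 981 against 1216. Gdnf, Adm, Vgf and Syt6 were below 20 CPM in the other 3 dpi cells, so they could be counted only as higher. Among cells of like oligodendrocyte RNA the log2 ratio was 0.84 for Vgf and 0.96 for Syt6, below 2-fold, and 1.22 for Adm and 1.54 for Gdnf. Cpe came there from 0.97 to 0.28, Btc from 0.98 to 0.43 and Tgfa from 0.92 to 0.51.

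Of 24 measured axon growth genes 4 were 2-fold higher and 0 lower, with a median of 0.21. The shares over all measured genes were 1.81% and 0.69%. Besides Marcks these were Dpysl3, a collapsin response mediator, at 46.8 against 9.96 CPM, the intermediate filament gene Nes at 44.8 against 12.8 and the neuropeptide gene Gal at 29.8 against 0.383. All Gal UMIs came from 9 cells. Dpysl3, Nes and Gal were below 20 CPM in the other cells, so they could be counted only as higher. Among cells of like oligodendrocyte RNA Dpysl3 came to a log2 ratio of 0.87, Nes to 0.27 and Gal to 0.15. In female-derived cells Gal stood at 0.31. Uchl1 was level at 574 against 602 CPM.

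Stress genes were counted against the 1.81% of all measured genes that were 2-fold higher. Of 23 measured genes of the integrated stress response, a shared answer to amino acid loss and misfolded protein, 1 was 2-fold higher, asparagine synthetase (Asns) at 72.1 against 28.2 CPM. The median was 0.19, and -0.03 among cells of like oligodendrocyte RNA. None of 21 chaperone and quality control genes of the endoplasmic reticulum (0 higher, 0 lower) passed 2-fold, with Hspa5 at 719 against 617 CPM and 241 in sham. Among 15 p53 targets 1 passed, Ccnd1 itself, and Cdkn1a, which holds the cell cycle, stood at 270.1 against 172 CPM. The log2 ratio of Cdkn1a was 0.62, and -0.36 among cells of like oligodendrocyte RNA. That of Asns came there from 1.10 to 0.48. Immediate early and heat shock genes were 2-fold changed in 0 of 20 and cell death genes in 0 of 5. The iron store gene Fth1 stood at 26816 against 49454 CPM. Interferon genes had 0 of 5 past 2-fold and a median of -0.46.

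The 8 measured genes of MHC class I and II all lay above 0, with a median of 0.41 and 0 past 2-fold. Cd74 stood at 142 against 88.2 CPM and H2-Aa at 56.5 against 33.5, with a H2-Aa UMI in 7.89% and 5.84% of cells. The median of the list was 0.12 without called doublets, -0.20 in male-derived and 0.82 in female-derived cells. It was -0.70 among cells of like oligodendrocyte RNA, so it had no stable direction. In that last setting microglia and macrophage markers summed to 939 CPM in the Syt4/Sox4 cells and 1433 in the others. The part of phagocyte RNA in the value of -0.70 was not tested.

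Against 4834 sham oligodendrocytes the comparison was wider: of 6670 genes 562 were 2-fold higher (8.43%) and 540 were 2-fold lower (8.1%). Injury-associated genes were 2-fold higher in 18 of 26 and lower in 1, with a median of 1.99. Since the list was chosen on these libraries, that direction is no independent evidence. S100a10 stood at 761 against 4.22 CPM, a ratio of 180.1 (157 to 208). Lgals1 stood at 408 against 2.59 CPM. Further genes far above sham were Ralgps2, an activator of the GTPase Ral, at 198 against 1.204 CPM, the ferrireductase gene Steap3 at 134 against 0.671, the calcium-binding S100a6 at 2442 against 141 and Emp3 at 216 against 2.55. S100a10 and Steap3 were above sham in the other 3 dpi oligodendrocytes too, at 182 and 66.0 CPM.

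Lower than in sham were 18 of 30 myelin genes, with a median of -1.14, and 8 of 23 cholesterol genes. Ptgds stood at 1723 against 18867 CPM, Spock3, a secreted proteoglycan, at 13.8 against 268, Jph4, a junctophilin, at 3.51 against 117, and Nap1l5 at 47.2 against 320. The named genes on this side also held Flt1, Itm2a, Ly6c1, Vtn and Pltp at 101 to 141 CPM in sham and 2.34 to 8.38 CPM in the Syt4/Sox4 cells. Flt1 and Ly6c1 are endothelial genes, and the endothelial markers summed to 601 CPM in sham oligodendrocytes and 41.9 CPM in the Syt4/Sox4 cells; the part of endothelial RNA in these 5 genes was not tested. Without called doublets the log2 ratio of Flt1 came from -3.46 to -2.15, of Itm2a from -3.29 to -2.12, of Ly6c1 from -3.28 to -2.28, of Vtn from -2.86 to -2.05 and of Pltp from -2.60 to -1.91.

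The 1891 oligodendrocytes of the 3 dpi library were clustered without the rule's genes, to see where the Syt4/Sox4 cells lay. Of 15 clusters, which are described by number, 2 were mostly Syt4/Sox4 cells: cluster 4 with 112 of 167 cells (67.1%, 95% interval 59.4 to 74.1%) and cluster 5 with 104 of 166 (62.7%, 54.8 to 70.0%). They held 51.7% of the population. Another 43 cells lay in cluster 7, 36 in cluster 3 and 28 in cluster 14. Cluster 2 held 0 of 228 cells, which allows a share of up to 1.32%, cluster 10 held 0 of 77, which allows up to 3.90%, and cluster 6 held 1 of 142. Finer or coarser clustering, added after the data had been seen, gave 3 clusters with a majority of Syt4/Sox4 cells and 48.6 or 58.4% of them therein.

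**Figure D5:**
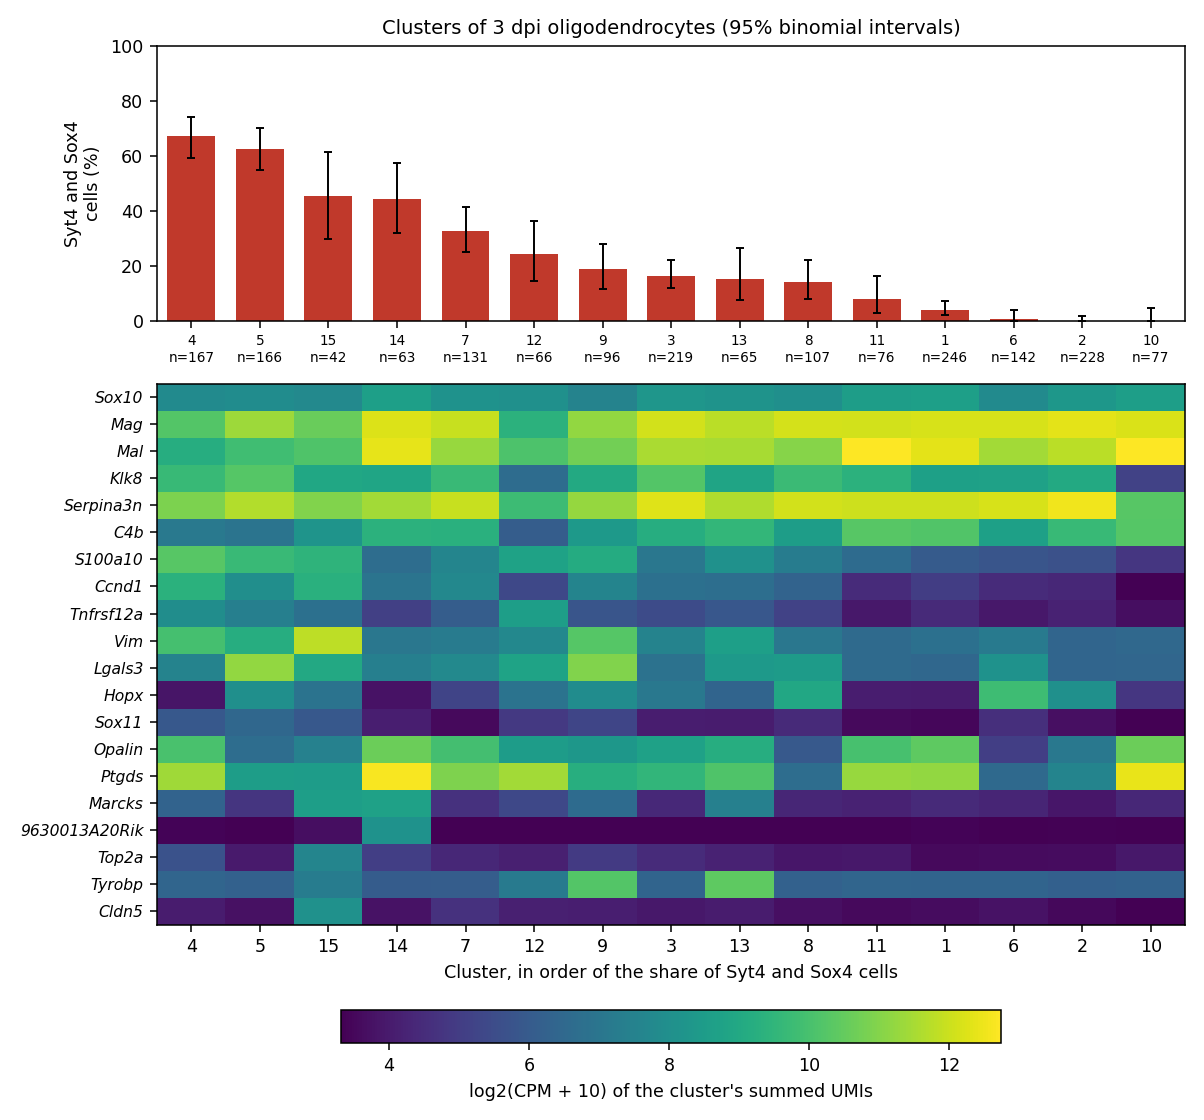
Upper panel, the percent of each cluster's cells that are Syt4/Sox4 cells, with 95% binomial intervals; lower panel, log2(CPM + 10) of selected genes in each cluster, all cells of the cluster summed. Clusters 4 and 5 stand at 67.1 and 62.7%, and differ from each other in Opalin, Ptgds, Hopx and Lgals3.

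The Syt4/Sox4 cells of clusters 4 and 5 were unlike each other. Counted over those cells alone, Opalin stood at 1165 CPM in the 112 cells of cluster 4 and 119.5 in the 104 of cluster 5, and Ptgds at 2788 and 518. Hopx stood at 3.07 and 204 CPM, Klk6 at 1487 and 2956, and Lgals3 at 208 and 2215. In the cord, Opalin and Ptgds on one side and Hopx and Klk6 on the other are known to mark different mature oligodendrocytes. S100a10, Ccnd1 and Tnfrsf12a were present in both, at 1466, 739.99 and 247 CPM in cluster 4 and 921, 305 and 188 in cluster 5. The secreted peptide gene Ucn2 stood at 143 and 49.0 CPM and the syndecan gene Sdc1 at 167 and 91.6. Median depth was 7346.5 and 14411 UMIs, and both held cells of both sexes, 41 male- and 37 female-derived in cluster 4 and 45 and 40 in cluster 5. The genes that lead a cluster formed it, so these values describe the clusters and are not a further result.

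The 28 Syt4/Sox4 cells of cluster 14 were rich in myelin RNA, with Mal at 3131 CPM and Ptgds at 5157. In them 9630013A20Rik stood at 472 CPM with a UMI in 46.4% of cells, Marcks at 711 and Fyn, a kinase of early myelination, at 381, while Gpr17 stood at 29.0 CPM. S100a10, at 120.3 CPM, and Ccnd1, at 131, were lower in these cells than in clusters 4 and 5. In the 43 cells of cluster 7 the alarmin gene Il33 stood at 2329 CPM and Opalin at 957. Of the 418 cells, 47 (11.2%) lay in clusters 9, 13 and 15, where 55.4 to 94.8% of cells were called doublets and genes of phagocytes, neutrophils or vessels led.

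Cells holding at least 5 of 20 cell cycle genes were 59 of 418 Syt4/Sox4 cells (14.1%, 95% interval 10.9 to 17.8%), 7.13% of the other 3 dpi oligodendrocytes, 67.0% of precursors and 0.662% of sham oligodendrocytes. After thinning to 3000 UMIs, cells with at least 3 such genes were 11.6%, 5.80%, 68.2% and 1.74%. Top2a, which untangles replicated DNA, stood at 41.7 CPM against 8.30 and Mki67 at 27.1 against 8.49 in the other 3 dpi cells. Among cells of like oligodendrocyte RNA the log2 ratio of Top2a came from 1.498 to 0.48 and that of Mki67 from 1.004 to -0.13. Without called doublets Mki67 stood at 0.81, and in female-derived cells Top2a stood at 0.82 and Mki67 at 0.39. Among these 59 cells Mag stood at 2107 CPM, but Ptprz1 stood at 43.2 CPM against 6.44 in the remaining 359, Vcan at 66.5 against 13.4 and Tyrobp at 268 against 105. Their median depth was 20131 against 9416 UMIs, and 32.2% of them were called doublets against 5.01%. The part of doublets with dividing cells in these counts was not tested.

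RNA of other cell types was present in both 3 dpi populations. Called doublets were 37 of the 418 cells (8.85%) and 8.55% of the others. Of 12 microglia and macrophage markers 10 reached 10 CPM in both populations. Of 8 endothelial markers 1 reached it in each, Egfl7 in the Syt4/Sox4 cells and Cldn5 in the others. Neuron markers summed to 619 CPM in the Syt4/Sox4 cells and 751 in the others; 1 of 15 reached 10 CPM, Elavl3, and Rbfox3, Slc17a6, Slc17a7, Slc32a1 and Slc6a5 were at 0. Astrocyte markers summed to 126 and 252 CPM, and the 9 without Aldoc to 83.8 and 41.9 CPM, so the order rests on Aldoc. Schwann cell markers summed to 34.1 and 31.8 CPM, neutrophil markers to 199.8 and 339, and fibroblast markers to 109 and 88.8. Of cells with a sex-linked UMI, 12.2% held UMIs of both sexes, against 10.9% in the other 3 dpi cells and 17.1% in sham. The libraries shared 39 barcodes, of which 0 were Syt4/Sox4 cells.

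Within the pool, cells could be split by Xist and Y-linked UMIs. Syt4/Sox4 cells were 150 of 669 male-derived oligodendrocytes (22.4%, 95% interval 19.3 to 25.8%) and 166 of 667 female-derived ones (24.9%, 21.6 to 28.4%). All 22 genes named against the other 3 dpi oligodendrocytes had the same direction in the cells of each sex. S100a10 had a log2 ratio of 2.04 in male-derived and 1.84 in female-derived cells, Ccnd1 of 2.39 and 2.08, and Amotl1 of 1.59 and 1.56. Klk8 stood at 0.90 and 0.30, and Fxyd7 at -2.02 and -1.11. Both sets come from 1 library and are not replicates.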

How the data were processed

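Per the labels' protocols, cells of mouse spinal cord went into 10X 3′ libraries, kit version 3. The deposited tables hold raw UMI counts per gene symbol and barcode, and the values were whole numbers. The submitters' processing notes name Cell Ranger, Seurat and GRCh38, a human build, although the symbols are those of mouse: 22164 of 22480 were found among mouse GENCODE symbols. Filters by the authors on cells are not stated in the labels. The sham table held 76889038 UMIs in 10138 barcodes, and 149291783 UMIs were in the 13594 barcodes at 3 dpi.

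The populations, genes and 24 gene lists were chosen with earlier results of these data known. Precursors had at least 5 UMIs of Pdgfra, Cspg4 and C1ql1 per 10000 and below 10 of the oligodendrocyte genes, with the same limits on C1q and collagen genes. UMIs were summed per population and divided by its total (CPM). Log2 ratios had 10 CPM added, which understates changes of low genes. Genes needed 20 CPM in either population, and the rule's genes were left out. A gene below 20 CPM in 1 population was measured only through the other, which set its direction. A 2-fold ratio is a size rule, with no test, since each group was 1 library. Named genes were the 12 highest and 10 lowest log2 ratios with at least 100 CPM, 20 UMIs and 10% of cells in the higher population and 10% of the level of the highest other cell type; up to 6 genes a list were named, 4 with the largest and 2 with the smallest difference. Other genes named, such as those of clusters, were chosen after their values were seen. A few genes that entered the counts are not reported here by name. Intervals are exact at 95% (Clopper-Pearson for shares, conditional for ratios) and treat UMIs as independent. A count of 0 was given a floor of 3 counts. Doublets were scored against simulated pairs at 0.8% per 1000 barcodes and kept. The ratio code was tested on simulated counts. Python 3.11.15, numpy 2.4.6, scipy 1.17.1, scikit-learn 1.9.0, igraph 0.11.9 and leidenalg 0.10.2 were used. The alternatives included depth, doublets, sex, scaling and the CPM added.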

Additional observations from a re-analysis of the deposited data

How the results depend on the processing

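The share of Syt4/Sox4 cells among 3 dpi oligodendrocytes was 13.3% with at least 10 per 10,000 of the pair, 24.9% in female-derived cells and 14.7% with UMIs of both genes required. The sham share was 0.414% at 10 per 10,000, 0.186% with both genes required, and 0.313% among cells at 80 to below 150 per 10,000 of the oligodendrocyte genes. Genes 2-fold higher than in other 3 dpi oligodendrocytes numbered 188 at 10 per 10,000, 185 with 1 CPM added and 48 among cells at 80 to below 150. Genes 2-fold lower numbered 126 at 10 per 10,000, 69 in male-derived cells, 81 with cells weighted equally, 90 with 1 CPM added and 76 with both genes required. The counts against sham and precursors stayed within 1.5 times under every alternative. Among 159 gene ratios past 2-fold, those of 2 genes reversed: Igfbp3 at -0.37 in female-derived cells and at -0.10 among cells at 80 to below 150, and Mki67 at -0.13 there. In that last setting 107 of the 159 stayed past 2-fold, against 139 without cycling cells, 141 in female-derived cells and at least 147 under the others. The requirement of both genes, the removal of cycling cells and the restriction to 80 to below 150 were added after the data had been seen. No paired analysis was possible because each group was 1 library. Depth limits single genes: 0 UMIs in the 418 cells allows up to 0.585 CPM.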
